A study of Mus musculus with 6 samples.

Results

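The mRNAs of the proteasome were followed in a mouse leukaemia cell line treated with OMP or with vehicle. The members were all genes whose names run from Psma to Psme followed by a number, leaving out Psmb8, Psmb9 and names that mark a pseudogene, which gave 43 of the 53465 genes in the table. Of these, 17 carry names of the core particle (Psma, Psmb), 21 carry names of the regulatory particle (Psmc, Psmd) and 5 belong to other activators (Psme). The name pattern also takes in Psmc3ip, whose product partners a recombinase in meiotic recombination and is not a proteasome subunit, and Psmd5, Psmd9 and Psmd10, whose products help to assemble the base and leave the finished complex.

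The proteasome is the protease that degrades proteins tagged with ubiquitin. Its core is a barrel with outer rings of alpha subunits, which gate the entrance, and inner rings of beta subunits, of which the products of Psmb6, Psmb7 and Psmb5 carry the caspase-like, trypsin-like and chymotrypsin-like cutting sites. A regulatory particle caps the barrel, with a base of ATPases that unfold substrates and a lid that holds the deubiquitinase encoded by Psmd14. Other caps, such as the one built from the products of Psme1 and Psme2, open the core without ubiquitin, and Psme1 and Psme2 are known to be induced by interferon. The product of Psmb5 is the main target of bortezomib, a drug used against blood cancers, and the transcription factor Nfe2l1 is known to raise subunit genes together when the proteasome is impaired.

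All 6 libraries came from cultures of the line Nras(G12D)/MLL-AF9, which carries a mutant Nras and the MLL-AF9 fusion and was grown with the cytokines SCF, IL-3 and IL-6. The Vehicle group received PBS and the OMP group 100 µM of OMP (4'-O-methylpyridoxine, an analog of vitamin B6 that is a known inhibitor of pyridoxal kinase), each for 6 days, with 3 libraries per group. The labels name 1 cell line and do not say whether it is a single clone or whether replicates were separate cultures, so the p-values reflect only how far these libraries scatter, and that scatter may be technical. In bulk RNA, fewer cells of a type and less RNA per cell cannot be told apart. The comparison asks which transcripts differ between the treatments.

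Library totals recovered from the deposited values ran from 3494986 to 4247619 reads. Of 8 markers of myeloid progenitors, all 8 reached an RPKM of 1 (reads divided by gene length and by library size) in 3 or more libraries, and of the erythroid, B cell and T cell markers 0 of 6, 0 of 5 and 0 of 5 did, with 4, 3 and 4 of them at 0 throughout. Among 5 stromal markers only Pdgfrb did, at a mean of 3.02 RPKM in Vehicle and 2.69 in OMP. The summed level of the myeloid list was 1326 to 1378 RPKM in Vehicle and 727 to 756 in OMP, of which Elane, singled out after its values were seen, made up 993 ± 23.2 and 370 ± 21.0 RPKM (SD, n = 3). Without Elane the sum was 351 to 359 RPKM in Vehicle and 366 to 381 in OMP. Of the 8 genes 3 were called higher (Ptprc, Spi1 and Itgam) and 5 lower (Csf3r, Kit, Mpo, Elane and Cebpa), and their part in the results below was not tested.

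A gene was called when its adjusted p from limma over all 11020 genes tested was under 0.05, and genes were tested where 3 libraries or more reached an RPKM of 1. Under this rule 43.0% of all genes tested were called, 15.4% as higher and 27.5% as lower with OMP. Of the 43 members 41 were tested. Psma8, a testis form of an alpha subunit, had 0 reads in every library, and Psmb11, the thymus form of a catalytic subunit, had 1 read, in OMP replicate 3. Each call was repeated under 17 other ways of processing the values.

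The proteasome genes as a whole changed little. Of the 41 tested, 9 rose and 9 fell, or 18 beside the background share of 43.0%, and 22 had values that did not overlap between the groups, where 54.5% of all genes tested did so. Their changes were small. Regardless of sign, the median log2 fold change was 0.10 for the members and 0.25 for all genes tested. Of the members 3, Psme2, Psme2b and Psmc3ip, changed by at least 1.5-fold, a size reached by 16.0% of all genes. All genes tested include many near 1 RPKM and were not matched to the members by level, so the part of level in this comparison was not tested. The median log2 fold change was 0.01 over the members and -0.09 over all genes tested. The count of members that rose depended on the scaling, with 16 higher and 4 lower under median-of-ratios scaling and 4 higher and 11 lower with TPM rescaling. It also fell from 9 to 5 without Vehicle replicate 2, without Vehicle replicate 3 or without OMP replicate 2.

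The calls of 8 members were made under all 17 alternatives. Psmb3, Psmc5, Psmd6 and Psmd8 were higher with OMP, and Psmb5, Psmd14, Psme2 and Psmc3ip were lower. For the other 10 called members at least 1 alternative ended the call. The plot of fold changes by role shows calls in both directions in the alpha ring, the beta ring, the lid and the other activators. Among the members, neither the base nor its chaperones had calls in both directions. Adrm1, a base subunit outside the name pattern, was called lower and is described below.

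**Figure D1:**
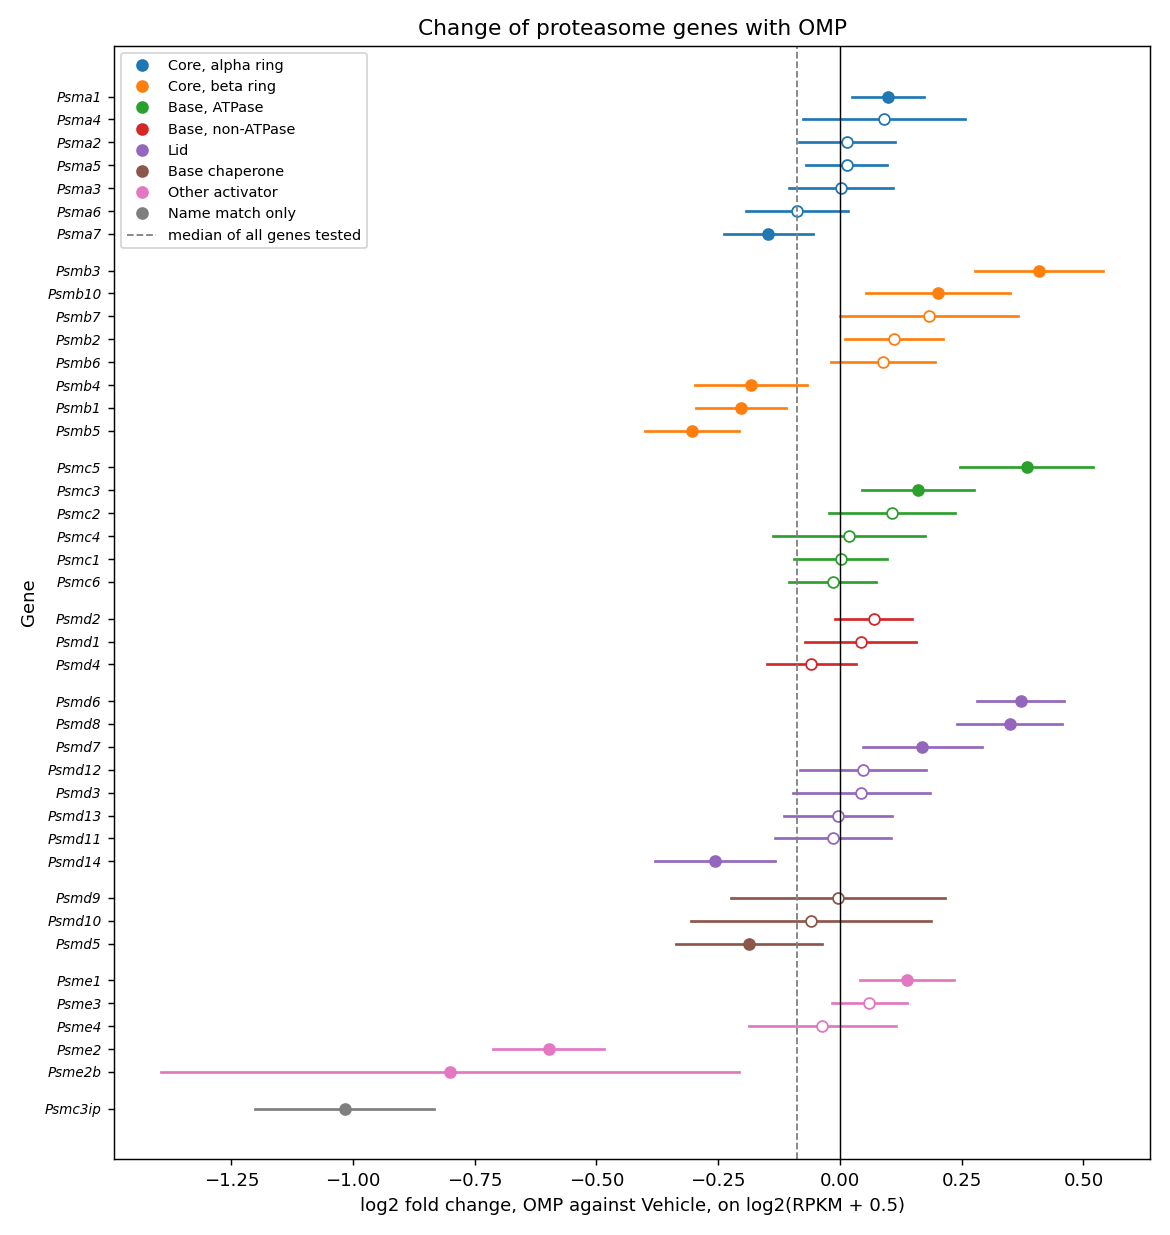
Log2 fold change of the 41 tested genes with its 95% interval from limma, on the log2(RPKM + 0.5) scale, grouped by role in the complex. Filled points passed the adjusted threshold, open points did not, and the dashed line is the median of all genes tested (-0.09). Most subunits lie near 0, with Psmb3, Psmc5, Psmd6 and Psmd8 to the right and Psmb5, Psmd14, Psme2, Psme2b and Psmc3ip to the left.

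The stretches before the start of 4 of these genes are shown, since they pair a core gene with a gene outside the core among those that rose and among those that fell. They run 5′ to 3′ on the gene's strand, in GRCm38.p6, and come from the RefSeq start sites, cut where the GENCODE gene begins. Capitals mark matches to a CCAAT box (CCAAT), a GC box (GGGCGG) or the core of an antioxidant response element, the motif bound by Nfe2l1 and Nfe2l2 with small Maf partners (TGACNNNGC), on either strand.
Psmb3 (rose; chr11:97703184-97703398, plus strand): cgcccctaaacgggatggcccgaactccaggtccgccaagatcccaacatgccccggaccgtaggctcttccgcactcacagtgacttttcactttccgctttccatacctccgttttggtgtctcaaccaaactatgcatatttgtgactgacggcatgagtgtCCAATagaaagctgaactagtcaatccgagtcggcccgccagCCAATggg
Psmc5 (rose; chr11:106255935-106256153, plus strand): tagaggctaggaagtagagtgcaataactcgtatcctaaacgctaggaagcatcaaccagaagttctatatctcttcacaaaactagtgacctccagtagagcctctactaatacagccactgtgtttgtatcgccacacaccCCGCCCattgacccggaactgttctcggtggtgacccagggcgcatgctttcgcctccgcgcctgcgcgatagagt
Psmb5 (fell; chr14:54618023-54618245, minus strand): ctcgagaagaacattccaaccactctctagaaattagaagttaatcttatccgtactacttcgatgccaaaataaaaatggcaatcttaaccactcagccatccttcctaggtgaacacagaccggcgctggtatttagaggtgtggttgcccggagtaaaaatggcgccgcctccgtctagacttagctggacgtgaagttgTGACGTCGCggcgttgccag
Psme2 (fell; chr14:55591114-55591351, minus strand): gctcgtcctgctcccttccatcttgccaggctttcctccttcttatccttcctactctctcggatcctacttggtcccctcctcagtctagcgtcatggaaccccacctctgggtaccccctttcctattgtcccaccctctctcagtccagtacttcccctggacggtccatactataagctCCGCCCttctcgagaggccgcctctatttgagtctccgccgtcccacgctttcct

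Of the members 36 had a promoter in the RefSeq table, and the 250 bases before the start were searched in each. The antioxidant core was found in 5 of the 36 genes (Psmb5, Psmb6, Psmc6, Psmd9 and Psmd12), or 13.9%, beside 11.5% of 27025 genes. Of these 5, Psmb5 fell and the other 4 were not called. A CCAAT box was found in 14 of the 36, or 38.9%, beside 37.5% of all genes, and a GC box in 20, or 55.6%, beside 35.4%. The background takes in genes that were not tested here, and shares among tested genes alone were not computed. Of the members called under all 17 alternatives, the GC box was present before Psmc5, Psmd6 and Psmd8, which rose, and before Psmd14 and Psme2, which fell. Of the other called members it was present before Psma1 and Psme1, which rose, and before Psma7 and Psmd5, which fell. A match describes the letters only.

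On the RPKM scale as deposited, the alpha ring stayed close to its Vehicle level. Of 7 genes tested, 1 rose and 1 fell, with a median log2 fold change of 0.01. Psma1 stood at 271, 262 and 274 RPKM in Vehicle and at 285, 293 and 287 RPKM in OMP, a 1.07-fold rise (log2 fold change 0.10 ± 0.03 SE, limma adjusted p = 0.0373). The groups did not overlap, but the call held in only 8 of the 17 alternatives and was lost without any 1 library other than Vehicle replicate 3 (adjusted p up to 0.127). Psma7 stood at 245, 244 and 249.6 RPKM in Vehicle and at 229, 227 and 211 in OMP, and was 1.11-fold lower (adjusted p = 0.0175). That call was lost without Vehicle replicate 3 (0.0561) and under 3 other settings. Psma2, Psma3, Psma4, Psma5 and Psma6 were not called. Under other scalings Psma5 was called higher with median-of-ratios (log2 fold change 0.10) and Psma6 lower with TPM rescaling (-0.17) and quantile normalization. With the GC content and length trend removed Psma2, Psma4 and Psma5 were called higher, as was Psma4 with voom. For Psma3 the 95% interval of the log2 fold change ran from -0.10 to 0.11, and for Psma5 from -0.07 to 0.10.

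Genes of the beta ring differed in both directions. Of 8 genes tested, Psmb3 and Psmb10 rose, Psmb1, Psmb4 and Psmb5 fell, and 7 had values that did not overlap between the groups, where 43.0% of all genes tested were called and 54.5% did not overlap. Psmb3, a structural subunit, was at 124, 133 and 123 RPKM in Vehicle and 162, 182 and 161 in OMP. Every OMP library lay above every Vehicle library, and the gene was 1.33-fold higher (log2 fold change 0.41 ± 0.06 SE, limma adjusted p = 0.000718).

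Of the 3 genes for the cutting sites, Psmb5 was called and Psmb6 and Psmb7 were not. With median-of-ratios scaling both Psmb6 and Psmb7 were called higher (limma adjusted p = 0.0144 and 0.0218). So they were with voom and with the GC content and length trend removed. Psmb5, for the chymotrypsin-like site, was at 83.0, 85.9 and 85.1 RPKM in Vehicle and 71.3, 67.3 and 67.0 in OMP, with no overlap. It was 1.23-fold lower (log2 fold change -0.30 ± 0.04 SE, limma adjusted p = 0.000675). Psmb6, for the caspase-like site, was at 161, 163 and 158 RPKM in Vehicle and 163, 166 and 182 in OMP and was not called (adjusted p = 0.162). The ratio of Psmb5 to Psmb6, which does not depend on how a library is scaled, was 0.517 to 0.540 in Vehicle and 0.368 to 0.436 in OMP. Psmb7, for the trypsin-like site, was at 71.5, 72.3 and 79.2 RPKM in Vehicle and 74.5, 92.7 and 86.7 in OMP. The groups overlapped at Psmb7 and it was not called (adjusted p = 0.0987), although it was without OMP replicate 1 (0.0118).

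Psmb10, which replaces Psmb7 in the immunoproteasome, the form made by immune cells, was at 32.4, 30.4 and 30.7 RPKM in Vehicle and 39.1, 34.8 and 34.0 in OMP. It was 1.15-fold higher (adjusted p = 0.0346). That call was lost without Vehicle replicate 2, Vehicle replicate 3 or OMP replicate 1 (up to 0.0985), without a filter (0.0638) and with TPM rescaling (0.180). The ratio of Psmb10 to Psmb7 ranged from 0.388 to 0.454 in Vehicle and from 0.375 to 0.524 in OMP, so these ratios overlapped. The structural genes Psmb1 and Psmb4 were 1.15-fold and 1.14-fold lower. Psmb1 went from 253 ± 2.81 to 219.7 ± 10.4 RPKM (SD, n = 3; limma adjusted p = 0.00416) and Psmb4 from 192 ± 9.73 to 169 ± 8.39 RPKM (adjusted p = 0.0192). Both calls ended with median-of-ratios scaling (adjusted p = 0.0503 and 0.176), with voom and with the GC content and length trend removed. That of Psmb4 also ended without a filter (0.0504) and without Vehicle replicate 1, OMP replicate 1 or OMP replicate 3 (up to 0.0658). Psmb2 was at 167 ± 7.33 RPKM in Vehicle and 180.0 ± 5.95 in OMP, and was not called (adjusted p = 0.0739). It was called higher with median-of-ratios scaling, with voom and with the GC content and length trend removed.

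**Figure D2:**
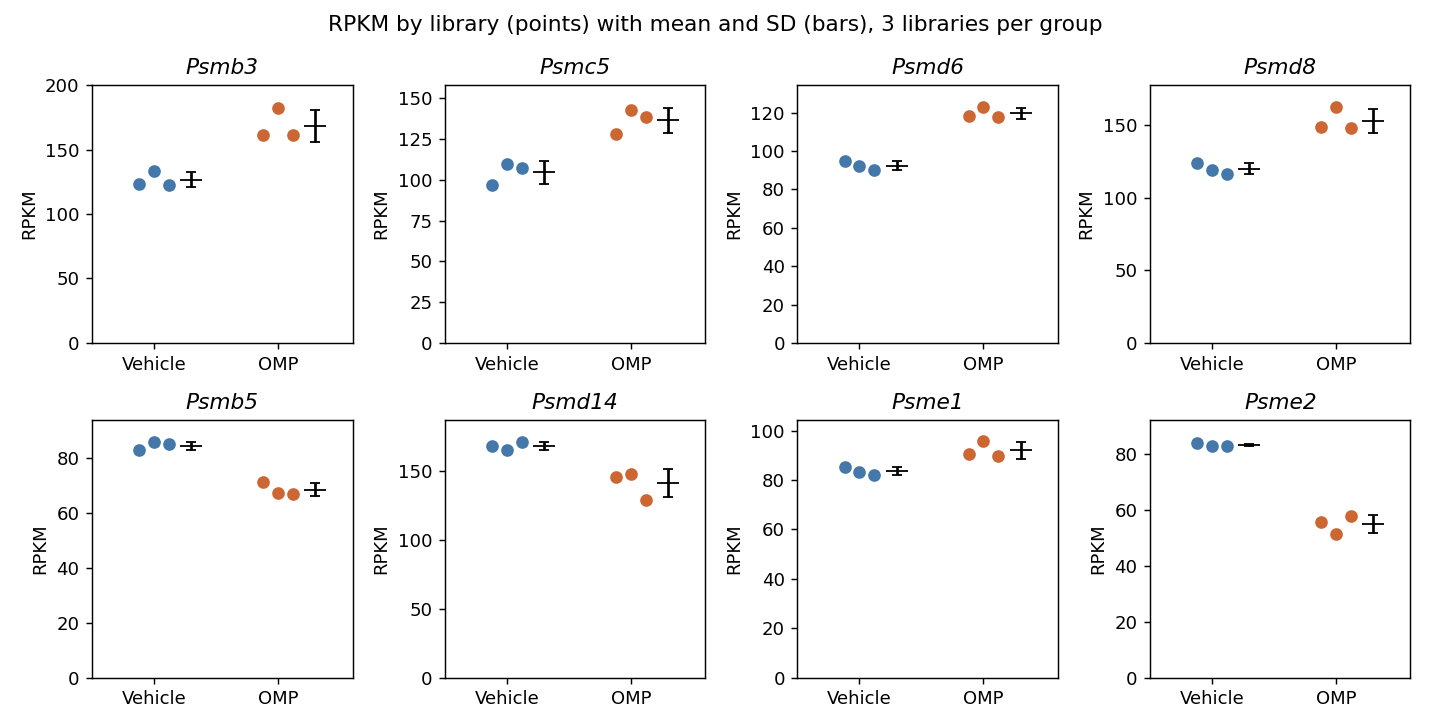
RPKM of 8 genes in each library (points) with the mean and SD of the 3 libraries per group (bars), on axes that start at 0. Psmb3, Psmc5, Psmd6, Psmd8 and Psme1 lie higher in all 3 OMP libraries than in any Vehicle library, and Psmb5, Psmd14 and Psme2 lie lower.

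In the base of the regulatory particle, 2 of the 6 ATPase genes rose and none fell. Psmc5 was at 96.8, 109.6 and 107 RPKM in Vehicle and 128, 143 and 138 in OMP. The groups did not overlap, and the gene was 1.30-fold higher (log2 fold change 0.38 ± 0.06 SE, limma adjusted p = 0.00119). Psmc3 was 1.12-fold higher, from 106 ± 4.66 to 119 ± 5.90 RPKM (adjusted p = 0.0319). That call was lost without Vehicle replicate 2 or 3 or OMP replicate 1 or 2 (up to 0.0990), without a filter (0.0669) and with TPM rescaling (0.230). The other 4 ATPase genes were not called. Psmc2 was called higher with median-of-ratios scaling, with voom and with the GC content and length trend removed. Psmc6 was called higher with that trend removed. Psmc1, at 108 ± 1.28 RPKM in Vehicle and 108 ± 4.61 in OMP, had an interval of its log2 fold change from -0.09 to 0.10, and Psmc6 one from -0.10 to 0.07. The 3 members of the base without ATPase activity, Psmd1, Psmd2 and Psmd4, were not called. Psmd1 and Psmd2 encode the large scaffold subunits and Psmd4 a ubiquitin receptor, and the log2 fold changes ranged from -0.06 to 0.07. Psmd1 and Psmd2 were called higher with voom and with the trend removed, and Psmd2 also with median-of-ratios scaling. With TPM rescaling Psmd4 was called lower.

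Of the 8 members in the lid, 3 rose and 1 fell. Psmd6, a PCI-domain subunit, was at 94.9, 92.0 and 90.3 RPKM in Vehicle and 118, 123 and 118 in OMP. It was 1.29-fold higher, without overlap (log2 fold change 0.37 ± 0.04 SE, limma adjusted p = 0.000156). Psmd8, another subunit of that domain family, was at 124, 119 and 117 RPKM in Vehicle and 149, 162 and 148 in OMP. It was 1.27-fold higher, again without overlap (log2 fold change 0.35 ± 0.05 SE, limma adjusted p = 0.000595).

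Psmd14 encodes the deubiquitinase that removes the ubiquitin chain before the substrate enters the core. It was at 169, 165 and 171 RPKM in Vehicle and 146, 148 and 129 in OMP, all below Vehicle, and was 1.19-fold lower (log2 fold change -0.26 ± 0.05 SE, limma adjusted p = 0.00527). Psmd7, which pairs with Psmd14 in the lid, differed the other way, from 112 ± 7.56 to 126 ± 4.03 RPKM (1.12-fold higher, adjusted p = 0.0323). That call was lost without Vehicle replicate 1 or 3 or OMP replicate 2 or 3 (up to 0.103), without a filter (0.0722) and with TPM rescaling (0.215). Psmd3, Psmd11, Psmd12 and Psmd13 were not called, with log2 fold changes from -0.01 to 0.05. With voom Psmd3 and Psmd12 were called higher.

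Of the chaperones that assemble the base, Psmd5 was 1.14-fold lower, from 24.4 ± 1.47 to 21.3 ± 0.885 RPKM (adjusted p = 0.0480). The call held in 6 of the 17 alternatives and was lost without each of Vehicle replicates 1 and 2 and OMP replicates 1, 2 and 3 (up to 0.151). Psmd9 and Psmd10, at 15.9 and 22.1 RPKM over all libraries, were not called. Their intervals were wider, from -0.22 to 0.22 and from -0.31 to 0.19.

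Core and regulatory particle genes were then set side by side. Of 15 core genes tested 3 rose and 4 fell, with a median log2 fold change of 0.01, and of 21 regulatory particle genes 5 rose and 3 fell, with a median of 0.02. With every name counted, Psmc3ip and the assembly chaperones included, the medians differed by -0.0043. That was less than the spread of this difference between libraries of a group (SD 0.029). With median-of-ratios scaling the counts were 7 higher and 1 lower for the core and 7 and 2 for the regulatory particle, and with TPM rescaling they were 1 and 5, and 3 and 4. Without Psmc3ip and the assembly chaperones, 17 regulatory particle subunits remained, of which 5 rose and 1 fell (median 0.04). The spread given above was for the full name sets, so the difference of medians for these subunits was not set against it.

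The summed levels did move apart. The 14 constitutive core genes Psma1 to Psma7 and Psmb1 to Psmb7 summed to 2180, 2195 and 2229 RPKM in Vehicle and 2145, 2256 and 2169 in OMP, which overlapped. The 17 members that are subunits of base and lid summed to 1729, 1735 and 1728 RPKM in Vehicle. In OMP they summed to 1821, 1883 and 1822, with all OMP libraries higher. The ratio of core to regulatory sum was therefore 1.26, 1.26 and 1.29 in Vehicle and 1.18, 1.20 and 1.19 in OMP. Without Psmb1, whose length could not be matched to the annotation, the mean ratio was 1.13 ± 0.016 in Vehicle and 1.07 ± 0.0064 in OMP (SD, n = 3). Taken as a mean over genes on the log2(RPKM + 0.5) scale, which weights genes equally, core exceeded regulatory genes by 0.43 to 0.46 in Vehicle and by 0.35 to 0.38 in OMP. These ratios within a library do not depend on its scaling, but the sums do. The RPKM of all genes together was also higher in OMP (450385 to 460979) than in Vehicle (427939 to 429191). The sums therefore do not show which particle moved. Adrm1 and Sem1, regulatory particle subunits outside the name pattern, are not in these sums, and sums with them were not computed. The mean of Adrm1 was 51.2 RPKM in Vehicle and 42.9 in OMP. That of Sem1, which was not called, was 149 in Vehicle and 136 in OMP. Sums and ratios are scores over chosen members and were given no test.

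**Figure D3:**
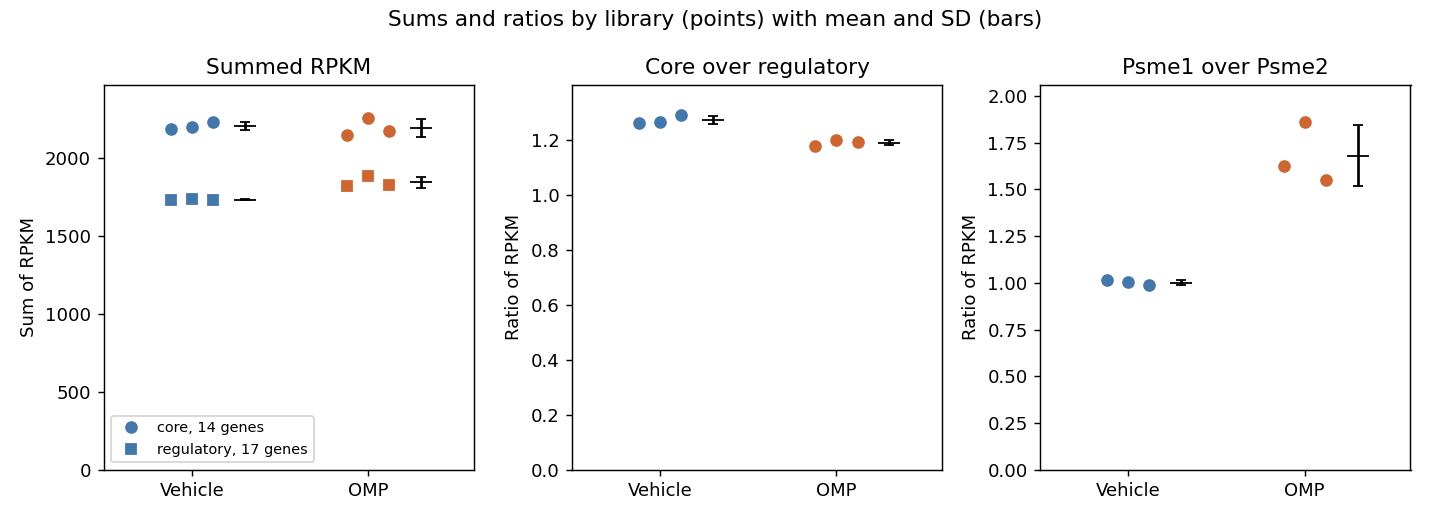
Left, RPKM summed over 14 core genes (circles) and 17 regulatory particle genes (squares) in each library. Middle, the ratio of these sums, and right, the ratio of Psme1 to Psme2. Points are libraries, bars are the mean and SD of 3 libraries, and all axes start at 0. The core to regulatory ratio is lower in all 3 OMP libraries, and the Psme1 to Psme2 ratio is higher.

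The other activators divided. Psme1 and Psme2 encode the partners of a heteromeric ring and lie near each other on chromosome 14 (GRCm38, 55578123 to 55581529 on the plus strand and 55587441 to 55591113 on the minus strand). Psme2 (ENSMUSG00000079197) was at 84.0, 83.1 and 83.2 RPKM in Vehicle and 55.6, 51.5 and 57.8 in OMP. The groups lay far apart beside their spread, and the gene was 1.51-fold lower (log2 fold change -0.60 ± 0.05 SE, limma adjusted p = 4.76e-05).

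Psme1 (ENSMUSG00000022216) was called in the other direction. It was at 85.2, 83.3 and 82.1 RPKM in Vehicle and 90.3, 96.0 and 89.7 in OMP, and was 1.10-fold higher (log2 fold change 0.14 ± 0.04 SE, limma adjusted p = 0.0289). That call was lost without Vehicle replicate 2, Vehicle replicate 3 or OMP replicate 2 (up to 0.0863) and with TPM rescaling (0.295). The ratio of Psme1 to Psme2 was 0.987 to 1.01 in Vehicle and 1.62, 1.86 and 1.55 in OMP, so the pair was level in Vehicle and unequal in every OMP library.

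Psme2b, a copy of Psme2 that shares 68.7% of its runs of 50 bases with it, had 39 reads in Vehicle and 18 in OMP. It was 1.74-fold lower (adjusted p = 0.0360). That call was lost without Vehicle replicate 2 or 3 or OMP replicate 1 or 3 (up to 0.122) and under 4 other settings. Reads of the copies cannot be told apart where they are identical. Psme3, whose product forms a nuclear activator, was at 146 ± 2.05 RPKM in Vehicle and 152 ± 2.39 in OMP and was not called (adjusted p = 0.185). It was called higher with median-of-ratios scaling, with voom and with the GC content and length trend removed. Psme4, for the large single-chain activator, was at 28.1 ± 1.14 and 27.4 ± 1.95 RPKM (adjusted p = 0.690).

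The largest change with a narrow error among the names was at the gene that is not a subunit. Psmc3ip was at 16.6, 16.3 and 14.6 RPKM in Vehicle and 7.76, 7.20 and 7.70 in OMP, 2.02-fold lower without overlap (log2 fold change -1.02 ± 0.08 SE, limma adjusted p = 3.56e-05). It had 246 reads in Vehicle and 105 in OMP. Its exons share 385 bases with Mlx on the opposite strand, and the strand setting of the counting is not given in the sources used here. Of the other members, Psmc3, Psmd13 and Psmb7 share 215, 342 and 405 exonic bases with a gene above 1 RPKM on the opposite strand. Overlaps of genes outside the members were not examined.

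Levels differed widely between subunits that stand in equal number in the complex. Over all 6 libraries Psma6 had the highest mean, at 306 RPKM, followed by Psma1 at 279, Psmb1 at 236 and Psma7 at 234 RPKM. The lowest of the constitutive core were Psma3 at 36.9, Psma2 at 71.4, Psmb5 at 76.6 and Psmb7 at 79.5 RPKM. The ATPase genes were more alike, from 103 RPKM for Psmc4 to 120.4 for Psmc5. RPKM divides by the length the authors used, which was 2846 bases for Psma3 and 2911 for Psma2 but 1042 for Psma6. Coding transcripts as short as 312 and 1353 bases are annotated for Psma3 and Psma2, and the part of length in these differences was not tested. For Psmb1 the recovered length of 1036 bases matched no annotated coding transcript. It is the smallest length that gives whole reads, so the true length and reads may be a multiple of those recovered. If the recovered reads are right, the mean of Psmb1 on its principal transcript of 1758 bases would be 139 RPKM.

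Of 17 genes that assemble the proteasome or associate with it, 2 rose and 1 fell, where 15.4% and 27.5% of all genes tested did so, with a median log2 fold change of 0.03. The count of 3 depended on the processing, with 5 called under TPM rescaling, 6 under median-of-ratios scaling, quantile normalization or voom, and 7 with the GC content and length trend removed. Usp14, a deubiquitinase bound to the regulatory particle, was at 129, 125 and 123 RPKM in Vehicle and 144, 152 and 141 in OMP (1.16-fold higher, limma adjusted p = 0.00352). Psmg1, a chaperone of the alpha ring, was 1.12-fold higher (adjusted p = 0.0426). That call was lost without Vehicle replicate 2 or 3 or OMP replicate 1 or 3 (up to 0.132), without a filter (0.0874) and with TPM rescaling (0.281). Adrm1, a ubiquitin receptor of the base, was 1.19-fold lower, from 51.2 ± 4.11 to 42.9 ± 1.15 RPKM (adjusted p = 0.0137). That call was lost without Vehicle replicate 1 or 3 (up to 0.0502). It also ended with median-of-ratios scaling (0.0717), with voom and with the GC content and length trend removed (up to 0.0922). Pomp, Psmg2, Psmg3, Psmg4, Sem1, Psmf1 and Uchl5 were not called, with log2 fold changes from -0.13 to 0.16. Psmg2 passed without OMP replicate 3 (0.0149) and Sem1 without Vehicle replicate 3 (0.0369). Pomp and Psmg2 also passed as higher with median-of-ratios scaling, quantile normalization, voom and the trend removed. Sem1 passed as lower with TPM rescaling, and Uchl5 as higher with the trend removed.

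Genes around Nfe2l1, the regulator of subunit genes, moved in both directions, with 4 of 12 higher and 3 lower, beside 15.4% and 27.5% of all genes tested. Ddi2, the protease that releases Nfe2l1, went from 13.2 ± 0.771 to 10.0 ± 0.409 RPKM, with no overlap (1.30-fold lower, limma adjusted p = 0.00454). Vcp, the ATPase that extracts proteins from the endoplasmic reticulum membrane, was at 66.5, 64.0 and 61.8 RPKM in Vehicle and 81.1, 92.3 and 83.3 in OMP (1.33-fold higher, limma adjusted p = 0.000663). Nfe2l1 itself went from 91.5 ± 3.21 to 84.4 ± 0.991 RPKM (adjusted p = 0.0480). That call held in 5 of the 17 alternatives and was lost without each of the 6 libraries (0.0626 to 0.159). The other genes called were chosen after their values were seen. Ngly1, which removes sugars from Nfe2l1, Nploc4, a Vcp cofactor, and Nfe2l2, a related factor, were 1.44-fold, 1.22-fold and 1.29-fold higher, and Ufd1, the partner of Nploc4, was 1.21-fold lower.

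Ubiquitin and shuttle genes numbered 17, of which 2 rose and 8 fell, with a median log2 fold change of -0.15. Over all genes tested falls also outnumbered rises, at 27.5% against 15.4%, and the median was -0.09. The 2 that rose, Uba1 (1.15-fold), the ubiquitin-activating enzyme, and Cdc34 (1.16-fold), a conjugating enzyme, were chosen after their values were seen. Among the 8 that fell were Ubqln2 (1.38-fold lower), Ube2n (1.32-fold) and Ube2l3 (1.31-fold), also chosen after their values were seen.

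The COP9 signalosome is a complex related to the lid, and 2 of its 9 genes rose and 2 fell, near the 43.0% called over all genes tested. With median-of-ratios scaling 7 of the 9 were called. The 2 genes named for the smallest p of the list were Gps1 and Cops4. Gps1 was 1.38-fold higher and Cops4 1.17-fold lower (limma adjusted p = 0.000394 and 0.00466). Cops7a, 1.17-fold higher, and Cops2, 1.20-fold lower, were the other 2 called. The call of Cops7a was lost without Vehicle replicate 2, OMP replicate 2 or OMP replicate 3 (adjusted p up to 0.105). It also ended without a filter (0.0765), with TPM rescaling (0.134) and with the replicate block. That of Cops4 was lost with voom and with the GC content and length trend removed (up to 0.0665). That of Cops2 was lost with the trend removed (0.214).

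Of 10 peptidases that trim proteasome products, 4 rose and 1 fell, where 15.4% and 27.5% of all genes tested did so. In all 3 were called without Vehicle replicate 3, and 8 with voom. The 2 named for the smallest p of the list were Nln and Npepps. Nln, neurolysin, was 1.58-fold higher, from 16.0 ± 0.758 to 25.6 ± 1.64 RPKM, and Npepps, a puromycin-sensitive aminopeptidase, was 1.36-fold higher (limma adjusted p = 0.000152 and 0.000377). Prep (log2 fold change 0.32), Erap1 (1.14-fold higher) and Blmh (1.11-fold lower) were the others called and, like Cops2 and Cops7a, were named after their values were seen. The call of Erap1 was lost without Vehicle replicate 3 (adjusted p = 0.0506) and with TPM rescaling (0.133). That of Blmh was lost without Vehicle replicate 1, Vehicle replicate 3 or OMP replicate 2 (up to 0.0869). It also ended with median-of-ratios scaling, quantile normalization, voom and the GC content and length trend removed (up to 0.428).

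**Figure D4:**
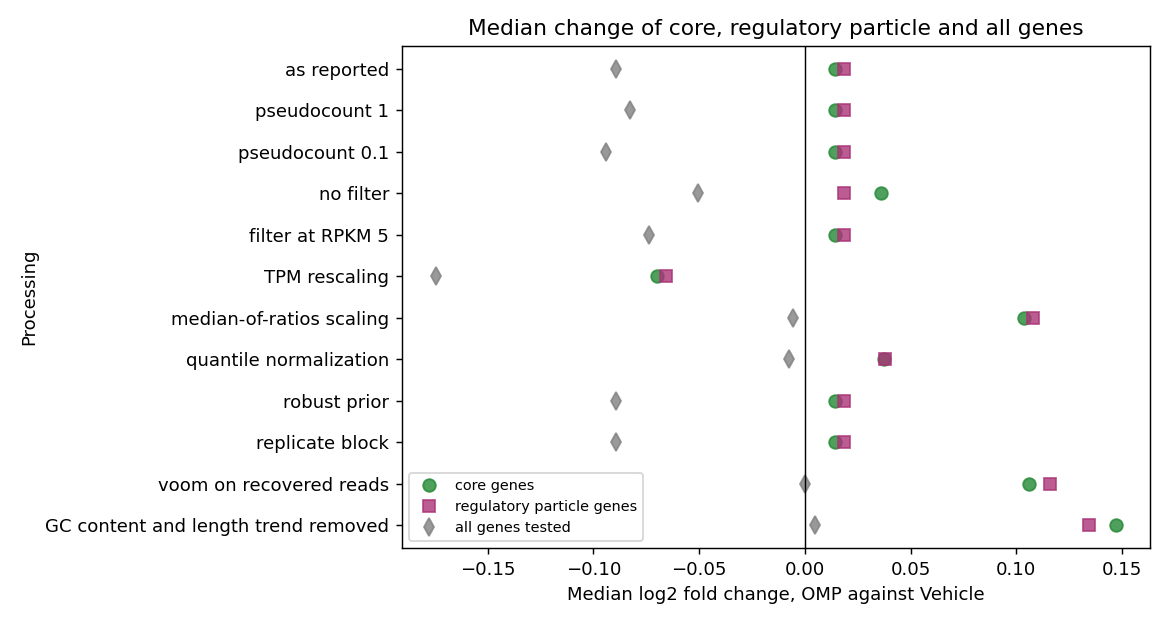
Median log2 fold change of the tested core genes (circles), regulatory particle genes (squares) and all genes tested (diamonds) under each way of processing that keeps all 6 libraries. In every setting shown both particle medians lie above the median of all genes, and they lie below 0 only with TPM rescaling (-0.07 for each).

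The members' medians were above that of all genes in each such setting. Under the settings that keep all libraries, the median of the core genes ran from -0.07 to 0.15 and that of the regulatory particle genes from -0.07 to 0.13, while the median of all genes ran from -0.17 to 0.0050. Across the 41 members the log2 fold change had a Spearman correlation of 0.22 with the GC content of the transcript and of 0.013 with its length, as a description over genes that share the same libraries.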

How the data were processed

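Poly(A)-selected RNA of 3 Vehicle and 3 OMP libraries was sequenced, per the labels' protocols. The authors deposited RPKM values, with 1 column per library. FastQC 0.11.5, Trimmomatic 0.36, STAR 2.5.3a, featureCounts 1.6.3 and the builds mm10 and GRCm38 are named in the submitters' processing notes. The annotation release, strand setting and treatment of multi-mapped reads were not given in the sources used here. Whole reads were recovered from the RPKM steps for 100% of the 19970 genes above 0, within a relative tolerance of 1e-06. For 94.6% of these genes the length came from GENCODE M21, which held 53360 of the identifiers. For the rest, Psmb1 among them, the smallest length that gave whole reads was used, so their reads are minimum values. Read counts cover counting error only.

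Values were fitted as log2(RPKM + 0.5) over all genes with limma 3.58.1 in R 4.3.3, with a prior that followed expression and no covariates, keeping genes at 1 RPKM or more in 3 libraries. Tests were two-sided, with Benjamini-Hochberg adjustment over all genes tested. Fold changes are on that scale and understate changes of low genes. The procedure was tested on simulated data, but the outcome is not given here and nothing above rests on it. The named genes were all members, 13 context genes fixed by name, and the 2 genes of smallest p in each of the ubiquitin, COP9 and peptidase lists. The pair from the ubiquitin list is not reported here. Members and lists were chosen with earlier results of these data known. Ecpas was matched by its older name AI314180. Figures were drawn with matplotlib 3.10.9 in Python 3.11.15.

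Alternatives were other pseudocounts (0.1, 1), other filters (none, or 5 RPKM), a robust prior, a replicate block, limma-voom with TMM scaling on the recovered reads, leaving out each library, and other scalings (quantile, TPM, median-of-ratios). Removal of each library's trend with GC content and length was added after seeing the data. Chi-square per degree of freedom between libraries of a group was 1.19 to 1.61, above sampling noise, and all 6 were kept as separate samples.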

Additional observations from a re-analysis of the deposited data

How the results depend on the processing

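For single genes, across all alternatives, 2 values that were called in one of the fits changed sign, 103 lost a call, 43 gained one and 1092 did none of these. Of the 1092, 69 from 22 genes changed sign without being called in either fit. The called values that changed sign were Psma1 with quantile normalization (-0.0061) and Psmc6 with the GC content and length trend removed (0.16), an alternative chosen after seeing the data, and the cause was not tested. Members past the threshold numbered 18 as reported, 11 without a filter (5 of them higher), where 19970 genes were tested, and 12 to 14 without 1 library, where 5 to 7 were higher and 6 to 8 lower. Members higher and lower were 4 and 11 with TPM rescaling, 16 and 4 with median-of-ratios scaling, 19 and 4 with voom, and 20 and 5 with the GC content and length trend removed. These settings moved the median of all genes by -0.085 to 0.094. Of the 18 members called as reported, 13 were also called with TPM rescaling, 13 with median-of-ratios scaling, 13 with voom and 14 with the trend removed. The core median was 0.036 without a filter, -0.070 with TPM rescaling, 0.10 with median-of-ratios scaling, 0.037 with quantile normalization, 0.11 with voom and 0.15 with the trend removed, and ran from 0.0092 to 0.035 without 1 library. The regulatory particle median was -0.066 with TPM rescaling, 0.11 with median-of-ratios scaling, 0.12 with voom, 0.13 with the trend removed and 0.044 without Psmb10, Psmd5, Psmd9, Psmd10 and Psmc3ip, and ran from 0.0038 to 0.051 without 1 library. The difference of the medians ran from -0.025 to 0.022 without 1 library. Assembly and associated genes called were 5 with TPM rescaling, 6 each with median-of-ratios scaling, quantile normalization and voom, and 7 with the trend removed, against 3 as reported. COP9 genes called were 7 with median-of-ratios scaling against 4, and peptidases 8 with voom against 5, with 3 to 5 without 1 library. All genes called numbered 4735 as reported and 3968 to 4241 without 1 library. The split of all calls, 1702 higher and 3033 lower, became 1215 and 3973 with TPM rescaling, 2370 and 2237 with median-of-ratios scaling, 2244 and 2321 with quantile normalization, 2693 and 2479 with voom and 2467 and 2166 with the trend removed. Replicate numbers share only a number, since the correlations within the 3 numbers were -0.0024, 0.015 and 0.0069. With the replicate block 16 members were called (8 higher, 8 lower) and 4445 genes in all. Depth limits Psme2b, which had 4 to 17 reads in each library, and Psmb11, with 1 read in all.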

Other observations

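The inducible core subunits that the member rule left out also differed. Psmb8, which replaces Psmb5 in the immunoproteasome, was at 65.4, 68.8 and 66.5 RPKM in Vehicle and 39.2, 37.7 and 38.6 in OMP, and was 1.73-fold lower (log2 fold change -0.79 ± 0.04 SE, limma adjusted p = 5.41e-06). Psmb9, which replaces Psmb6, was at 24.2, 20.8 and 23.4 RPKM in Vehicle and 11.4, 11.3 and 9.55 in OMP, and was 2.07-fold lower (log2 fold change -1.05 ± 0.09 SE, limma adjusted p = 5.76e-05). Both calls were made under all 17 alternatives, with no overlap between the groups. Psmb10, the remaining inducible subunit, was higher with OMP, as given above, with a less stable call. The rows named as pseudogenes of Psmb5, Psmb6 and Psmb7 were at 0 in every library or at most at 0.399 RPKM.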
